A study of Mus musculus with 15 samples.

Results

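Schwann cells wrap the axons of peripheral nerves, and the genes described here are 8 that are used to mark these cells and their myelin, namely *Pmp22*, *Mbp*, *Prx*, *Mag*, *Sox10*, *Ngfr*, *S100b* and *Gap43*. They were chosen by symbol, through the GRCm38 gene identifiers of the deposited counts, and all 8 were found among the 30672 genes of the table. Of these 8 genes, 7 passed the filter on low counts, as did 15533 genes in all, and *Gap43* did not. The tissue was whole tibialis anterior muscle, so the values come from the nerve branches inside a muscle and not from a dissected nerve.

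The animals were 15 male mice of the 129Pas strain, all aged 7 weeks. Wild-type mice without treatment (WT, n = 4) and with tamoxifen (WT + TAM, n = 4) were set beside Mtm1-/y mice without treatment (n = 4) and with tamoxifen (Mtm1-/y + TAM, n = 3). Mtm1-/y males have no working copy of the X-linked *Mtm1* gene, which encodes the phosphoinositide phosphatase myotubularin, and serve as a model of X-linked myotubular myopathy. Tamoxifen is a selective modulator of oestrogen receptors, and the labels give neither its dose and start nor a vehicle for the untreated mice.

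Myelinating Schwann cells build a compact sheath from lipids and a small set of abundant proteins, among which PMP22 spans the membrane and myelin basic protein (MBP) lines its inner face. The transcription factor SOX10 defines the lineage and, together with EGR2, switches on the myelin genes. After nerve injury these cells lower their myelin genes and raise genes such as *Jun* and *Ngfr*. Several of the 8 genes are also used outside Schwann cells. *Pmp22* is transcribed in fibroblasts and other cells, *S100b* in fat cells and muscle, *Ngfr* in regenerating muscle, and *Gap43* in axons.

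Library totals ranged from 18042558 to 45823277 counts, and levels are given as counts per 1000000 (CPM) scaled by library total and TMM factor. *Mtm1* itself measured 14.9 to 15.6 CPM in WT, 13.5 to 17.7 CPM in WT + TAM, 2.91 to 3.63 CPM in Mtm1-/y and 3.04 to 3.71 CPM in Mtm1-/y + TAM libraries, so each library matched its genotype label. The skeletal muscle label was met as well, since a list of 8 fast fibre genes summed to between 135000 and 233000 CPM. Of the libraries, WT + TAM replicate 1 and Mtm1-/y replicate 1 stood apart from the rest of their groups, and the values they moved most are given with and without them. In whole muscle, fewer Schwann cells and less RNA per Schwann cell cannot be told apart.

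Per kilobase of exon, *Pmp22* was the most abundant of the 8 genes in WT muscle, at 12.6 ± 1.69 RPKM (CPM per kilobase of exon, SD, n = 4). *Prx* (2.16 ± 0.444 RPKM) and *Mbp* (1.67 ± 0.334 RPKM) followed, then *Ngfr* (0.948 ± 0.241 RPKM), *S100b* (0.682 ± 0.357 RPKM), *Sox10* (0.592 ± 0.126 RPKM), *Mag* (0.27 ± 0.0777 RPKM) and *Gap43* (0.102 ± 0.0182 RPKM), each as SD with n = 4. The intervals of mean ± SD overlapped between *Prx* and *Mbp*, between *Ngfr* and *S100b*, and between *S100b* and *Sox10*, and those of the remaining neighbours in this order did not. The order of *Prx* and *Mbp* depended on the gene length used, since over the longest annotated transcript *Mbp* lay at 2.96 and *Prx* at 2.22 RPKM. *Mag* rested on 4 to 59 counts per library and *Gap43* on 0 to 6.

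**Figure D1:**
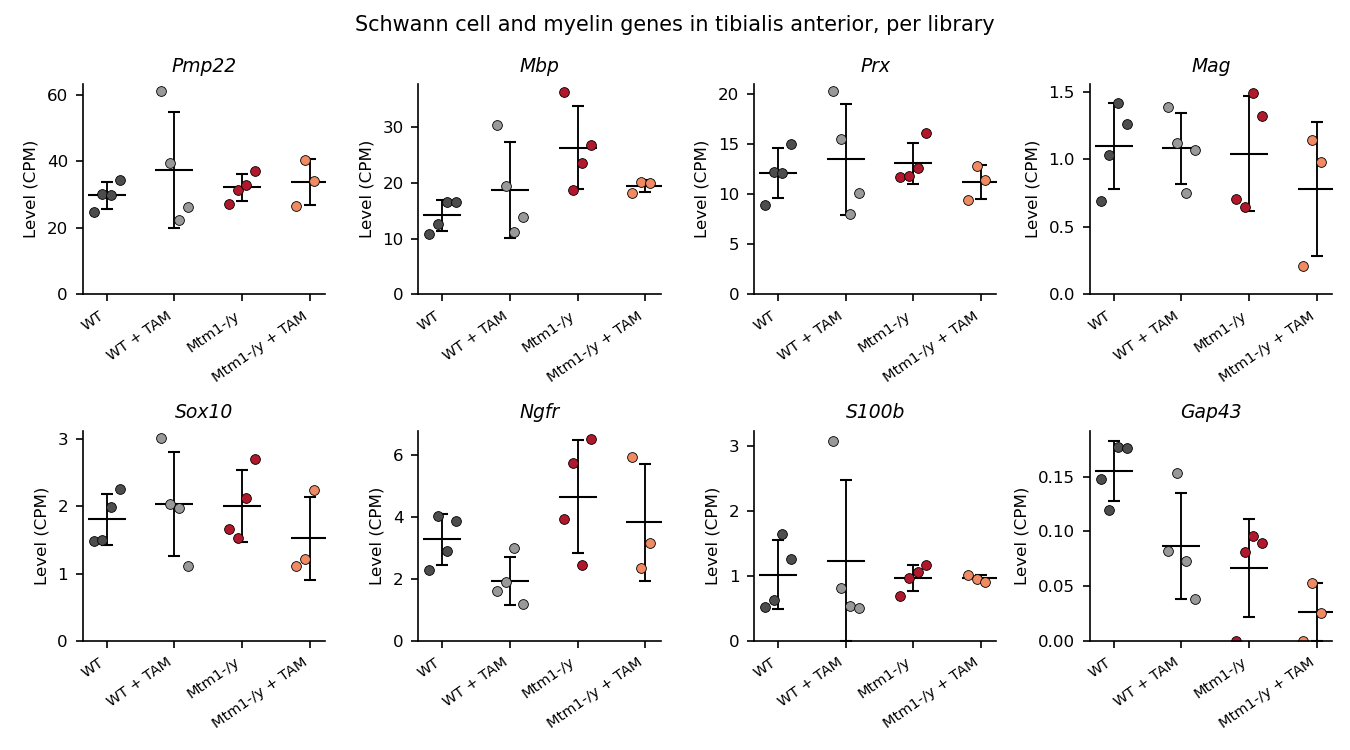
Level of each of the 8 genes in every library, in CPM on linear axes from 0, with points for libraries of the 4 groups in order of replicate number, and a horizontal line with bars for the mean and SD (bars that reach below 0 end at the axis). The 4 Mtm1-/y libraries lie above the 4 WT libraries for *Mbp* (18.8 to 36.4 against 10.9 to 16.6 CPM), and the highest point for *Pmp22*, *Prx*, *Sox10* and *S100b* is WT + TAM replicate 1.

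Of the structural genes of the sheath, *Pmp22*, *Prx* and *Mag* were not called between the genotypes. *Pmp22* (ENSMUSG00000018217, chr11:63128982-63159547, plus strand) encodes a small membrane protein of compact myelin whose dosage is altered in hereditary neuropathies. It measured 24.6, 30.2, 29.9 and 34.3 CPM in WT libraries and 27.1, 31.3, 33 and 37.1 CPM in Mtm1-/y libraries. It measured 61.1, 39.4, 22.4 and 26.3 CPM in WT + TAM libraries and 26.6, 40.5 and 34.2 CPM in Mtm1-/y + TAM libraries. All 4 groups overlapped, and the single high value of 61.1 CPM was that of WT + TAM replicate 1. *Prx* (ENSMUSG00000053198, chr7:27499324-27520214, plus strand) encodes periaxin, which links the Schwann cell membrane to its surroundings. It measured 8.9, 12.2, 12.1 and 15 in WT, and 11.7, 11.8, 12.6 and 16.1 CPM in Mtm1-/y libraries. With tamoxifen it measured 20.3, 15.5, 7.96 and 10.1 in WT and 9.43, 12.8 and 11.4 CPM in Mtm1-/y libraries. The groups overlapped again, with the highest value in the same library as for *Pmp22*. A stretch of 300 exon bases of *Prx*, 5.38% of its exons, lies opposite the antisense gene *Gm15541*, and whether counting used strand is not stated.

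Promoter sequences are shown for *Pmp22* and *Prx*, whose levels moved together across libraries as described further on, and for *Ngfr*, whose level had low correlations with theirs. The sequences are from RefSeq (GRCm38.p6), read 5′ to 3′ on the strand of the gene, and end at the base before the first annotated start. Capitals mark the CCAAT box (CCAAT or its reverse complement ATTGG) and the core of the EGR motif (GTGGGNG or its reverse complement CNCCCAC).
Pmp22, chr11:63128732-63128981, plus strand: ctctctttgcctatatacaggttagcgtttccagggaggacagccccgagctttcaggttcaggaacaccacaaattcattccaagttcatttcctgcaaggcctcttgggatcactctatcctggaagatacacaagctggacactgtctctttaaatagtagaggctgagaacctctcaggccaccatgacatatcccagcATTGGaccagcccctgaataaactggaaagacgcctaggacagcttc
Prx, chr7:27499074-27499323, plus strand: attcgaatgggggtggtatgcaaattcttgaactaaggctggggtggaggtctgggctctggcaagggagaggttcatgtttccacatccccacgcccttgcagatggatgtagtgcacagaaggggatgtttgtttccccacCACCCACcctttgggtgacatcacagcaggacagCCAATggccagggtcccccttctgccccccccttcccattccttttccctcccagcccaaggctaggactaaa
Ngfr, chr11:95587736-95587948, minus strand: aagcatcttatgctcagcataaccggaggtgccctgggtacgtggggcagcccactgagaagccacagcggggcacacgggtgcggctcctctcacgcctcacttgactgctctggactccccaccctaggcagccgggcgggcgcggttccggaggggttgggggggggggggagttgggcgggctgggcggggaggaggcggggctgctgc
The *Pmp22* stretch, upstream of the first of its 4 RefSeq starts, holds a CCAAT box 47 bases before the start. The *Prx* stretch holds a CCAAT box 73 bases and an EGR core 107 bases before its start, and the *Ngfr* stretch holds neither. The *Ngfr* stretch is also the richest in G and C, with 70.9% against 48.8% for *Pmp22* and 56.4% for *Prx*.

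In the RefSeq table, 5 of the 8 genes had promoter windows of 300 bases (250 before and 50 after a start), 10 windows in all, while *Mbp*, *Sox10* and *Gap43* were not matched. The core of the SOX motif (ACAAT or ATTGT, either strand) was in 0 of the 10 windows, where 31.0% of all 32851 windows held it. A paired form, with matches on opposite strands at most 20 bases apart, was likewise in none of the 10 and in 0.886% of all windows. The CCAAT box was in 6 of the 10 windows (*Mag*, *Pmp22*, *Prx* and *S100b*) and 37.4% of all windows, and the EGR core was in 3 of the 10 (*Mag* and *Prx*) and 31.6% of all. The 10 windows are not independent, since windows of the same gene can overlap. Those of *Mag* at chr7:30914814-30915113 and chr7:30914873-30915172 do, and their EGR match is the same site. These letters can also form part of longer motifs. The matches describe the windows only, and an absent match says that the letters are not in that window.

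*Mag* (ENSMUSG00000036634, chr7:30899176-30914873, minus strand) encodes an adhesion protein of the innermost myelin turn, next to the axon. It measured 0.689, 1.03, 1.42 and 1.26 in WT and 0.706, 0.645, 1.49 and 1.32 CPM in Mtm1-/y libraries. Values were 1.39, 1.12, 0.748 and 1.07 CPM in WT + TAM and 0.212, 1.14 and 0.982 CPM in Mtm1-/y + TAM libraries. The groups overlapped, and the low value of 0.212 CPM rested on 4 counts in Mtm1-/y + TAM replicate 1, the shallowest library.

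*Mbp* was the gene of the 7 tested that rose in untreated mutant muscle. *Mbp* (ENSMUSG00000041607, chromosome 18, 82475146 to 82585637, plus strand) encodes the cytoplasmic protein that holds the inner membrane faces of myelin together. Its WT libraries measured 10.9, 12.7, 16.6 and 16.5 CPM and its Mtm1-/y libraries 36.4, 18.8, 23.5 and 26.8 CPM. Every Mtm1-/y value lay above every WT value, and the highest was that of Mtm1-/y replicate 1. Between these groups 15.5% of all tested genes were called higher. The share of all genes whose groups did not overlap was not counted, here or for the genes below. The group means were 14.2 ± 2.83 CPM (WT) and 26.4 ± 7.42 CPM (Mtm1-/y), with SD and n = 4 each. The log2 fold change was 0.90 (SE 0.27, 95% interval 0.31 to 1.49, 1.87-fold, adjusted p 0.0236 by edgeR's quasi-likelihood test). The call was lost without WT replicate 1 (adjusted p 0.0696), WT replicate 2 (0.0623) or Mtm1-/y replicate 1 (0.0751), and with no filter on low counts (0.0653). In the fit without Mtm1-/y replicate 1 and WT + TAM replicate 1 together, the log2 fold change was 0.71 (SE 0.19) and the adjusted p 0.0108. These libraries were picked with results of the same data known, so the smaller p is not separate support for the call. Mtm1-/y replicate 1 also differed in its sum of 6 fibroblast genes, 327 CPM against 785 to 1330 CPM in the others of its group. Its sum of 8 denervation-responsive muscle genes was 529 CPM against 263 to 401 CPM. The part of this makeup in its *Mbp* level was not tested. Per kilobase, *Mbp* lay above *Prx* in Mtm1-/y muscle (3.11 ± 0.876 against 2.34 ± 0.366 RPKM, SD, n = 4). The annotation gives 16 transcripts for *Mbp*, some of which are known from cells other than myelinating glia, and counts per gene do not separate them.

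Under tamoxifen the *Mbp* levels of the genotypes overlapped. WT + TAM libraries measured 30.5, 19.5, 11.1 and 13.9 CPM and Mtm1-/y + TAM libraries 18.2, 20.1 and 20 CPM. The treated mutant values lay within the range of the treated wild type and above all 4 untreated WT values. The difference between the treated genotypes was 0.06 on the log2 scale (SE 0.29, adjusted p 0.919), and 0.40 (adjusted p 0.153) without the libraries that stood apart. The interaction of genotype and tamoxifen, which tests whether the genotype effect itself differed with the drug, was -0.84 (SE 0.40, 95% interval -1.71 to 0.02, unadjusted p 0.0556, adjusted p 0.481). Without Mtm1-/y replicate 1 and WT + TAM replicate 1 it was -0.30 (SE 0.28).

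The genotypes were compared without the drug to ask what the absence of *Mtm1* changes. Of the 7 tested genes 1 was called, *Mbp*, where 30.4% of all tested genes were called in this comparison (adjusted p under 0.05). Their median change was 0.12 on the log2 scale, beside 0.00 over all genes. *Pmp22* differed by 0.11 (SE 0.25, 95% interval -0.43 to 0.65, adjusted p 0.774) and *Prx* by 0.12 (SE 0.24, 95% interval -0.40 to 0.63, adjusted p 0.751). *Mag* (-0.05, interval -0.89 to 0.79), *Sox10* (0.16, interval -0.48 to 0.81), *Ngfr* (0.51, interval -0.23 to 1.26) and *S100b* (-0.05, interval -1.15 to 1.06) were less precisely measured and were not called either.

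**Figure D2:**
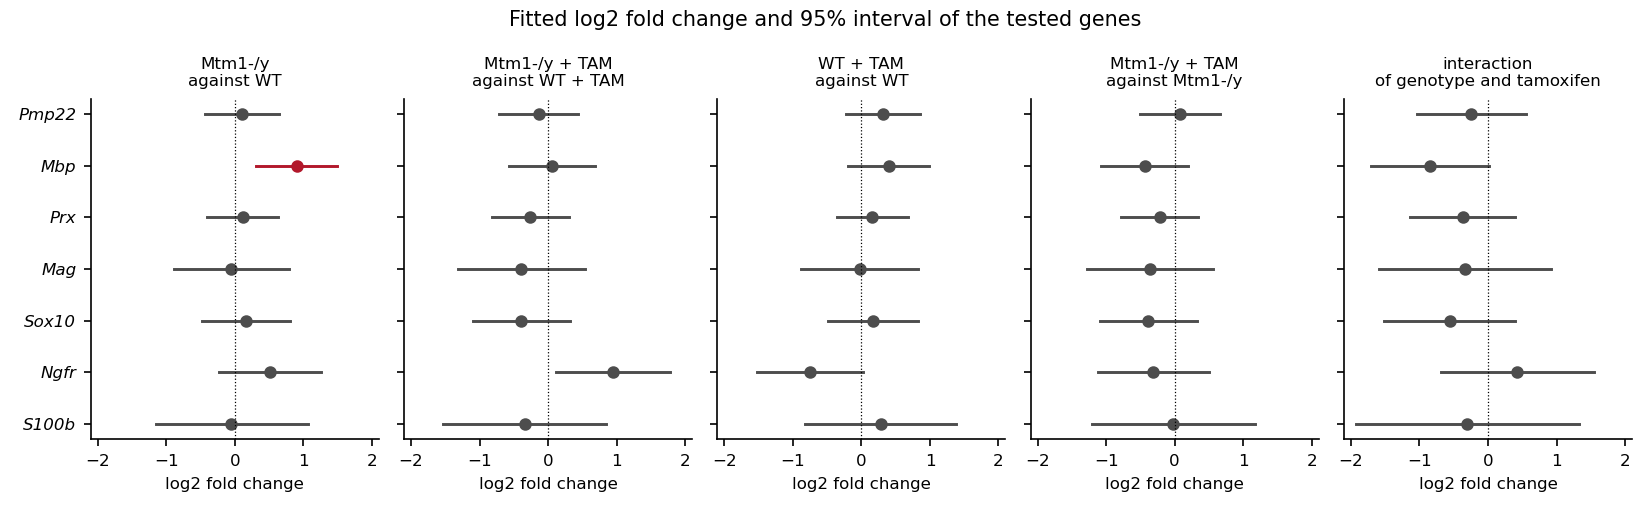
Log2 fold change (points) with its 95% interval (lines) for the 7 tested genes in 4 comparisons and the interaction of genotype and tamoxifen, with called genes in red. *Mbp* between Mtm1-/y and WT (0.90, interval 0.31 to 1.49) is the called value, and the interval of *Ngfr* between the treated genotypes (0.12 to 1.78) lies above 0 without a call at the adjusted threshold.

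*Sox10* (ENSMUSG00000033006, chr15:79154908-79165240, minus strand), the lineage transcription factor, was not called in any comparison. It measured 1.48, 1.5, 1.99 and 2.26 CPM in libraries of WT mice and 1.67, 1.53, 2.13 and 2.71 CPM in those of Mtm1-/y mice. With tamoxifen it measured 3.02, 2.04, 1.98 and 1.11 CPM in WT + TAM and 1.11, 1.22 and 2.24 CPM in Mtm1-/y + TAM libraries. Its lowest and highest values among the 15 libraries were both in the WT + TAM group, in replicates 4 and 1. Its log2 fold change was -0.39 (SE 0.33, adjusted p 0.884) for tamoxifen in mutants and -0.39 (SE 0.33, adjusted p 0.443) between the treated genotypes.

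*Ngfr* (ENSMUSG00000000120, chr11:95568818-95587735, minus strand) encodes the low-affinity neurotrophin receptor p75, a marker of immature and injured Schwann cells. It measured 2.29, 4.03, 2.88 and 3.87 CPM in WT and 1.59, 1.89, 2.99 and 1.18 CPM in WT + TAM libraries. It measured 3.92, 5.73, 2.45 and 6.5 CPM in Mtm1-/y and 5.94, 2.36 and 3.15 CPM in Mtm1-/y + TAM libraries. The WT + TAM group held the lowest mean (1.91 ± 0.775 CPM, SD, n = 4) and Mtm1-/y the highest (4.65 ± 1.82 CPM, SD, n = 4), with overlap in each comparison. Tamoxifen in wild type gave a log2 fold change of -0.75 (SE 0.37, 95% interval -1.52 to 0.03, unadjusted p 0.059, adjusted p 0.466). Between the treated genotypes the log2 fold change was 0.95 (SE 0.39, 95% interval 0.12 to 1.78, unadjusted p 0.0281, adjusted p 0.1). Without WT + TAM replicate 3, whose 2.99 CPM was the highest of its group, that difference was 1.28 and passed the threshold (adjusted p 0.0483), and without Mtm1-/y + TAM replicate 1 it was 0.50 (adjusted p 0.435).

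*S100b* (ENSMUSG00000033208, chr10:76253853-76261159, plus strand) encodes a calcium-binding protein used as a histological marker of Schwann cells. It measured 0.517, 0.632, 1.64 and 1.26 in WT and 0.68, 0.968, 1.05 and 1.16 CPM in Mtm1-/y libraries. With tamoxifen it measured 3.07, 0.816, 0.531 and 0.496 in WT and 1.01, 0.953 and 0.906 CPM in Mtm1-/y libraries. WT + TAM replicate 1 alone lay above 2 CPM, and the mutant libraries lay within the WT range. The log2 fold change for tamoxifen in wild type was 0.28 (SE 0.52, adjusted p 0.888), and -0.72 without the libraries that stood apart.

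*Gap43* (ENSMUSG00000047261, chr16:42248442-42340651, minus strand) encodes a growth cone protein that both regrowing axons and injured Schwann cells make. It was close to the detection limit. The WT libraries held 6, 3, 4 and 6 counts, the WT + TAM libraries 2, 3, 3 and 1, the Mtm1-/y libraries 0, 2, 3 and 4, and the Mtm1-/y + TAM libraries 0, 2 and 1. A count of 0 allows a level of up to 0.0785 CPM in Mtm1-/y replicate 1 and 0.159 CPM in Mtm1-/y + TAM replicate 1 (3 counts, counting error only). In CPM, the 4 WT libraries (0.119 to 0.177) lay above the 4 Mtm1-/y libraries (0 to 0.0953). The exact two-sided permutation p of this difference was 0.0286, the smallest that 70 arrangements allow, in a test chosen after the values were seen. The summed counts were 9 in Mtm1-/y and 19 in WT, a depth-scaled ratio of 0.418 (95% interval 0.166 to 0.968, counting error only). EdgeR without the count filter gave -1.19 on the log2 scale (SE 0.73) with an adjusted p of 0.35. The exact p values of the remaining comparisons were 0.0857 for tamoxifen in wild type, 0.229 for tamoxifen in mutants and 0.114 between the treated genotypes.

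The comparisons of treated with untreated mice asked what tamoxifen changes in each genotype. In mutants 0 of the 7 tested genes were called by edgeR, where 0.0129% of all tested genes were called, and 861 genes but none of the 7 had an unadjusted p under 0.05. DESeq2 and limma-voom also called 0 of them. The largest log2 fold changes were those of *Mbp* (-0.44, SE 0.29, 95% interval -1.07 to 0.19, adjusted p 0.877), *Sox10* (-0.39) and *Mag* (-0.36). The value was 0.08 for *Pmp22* (SE 0.27) and -0.22 for *Prx* (SE 0.26). In wild type 0 of the 7 were called, where 0.309% of all genes were, and 1757 genes but none of the 7 had an unadjusted p under 0.05. The same held with DESeq2 and limma-voom.

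Several wild-type values depended on WT + TAM replicate 1. With it, *Pmp22* differed by 0.32 (SE 0.25), *Mbp* by 0.40 (SE 0.27) and *Prx* by 0.16 (SE 0.24) between WT + TAM and WT on the log2 scale. Without it and Mtm1-/y replicate 1, these values were -0.03, 0.06 and -0.12. That library held 2.32 times the median *Pmp22* level of the other WT + TAM libraries, 2.19 times that of *Mbp*, 2.01 times that of *Prx*, 1.53 times that of *Sox10* and 5.78 times that of *S100b*. For *Ngfr* the ratio was 0.845. The same library held the highest sum of 6 fibroblast genes, 3080 CPM, where the remaining libraries of its group held 683 to 1230 CPM. Fat cell genes were high in it as well. *Adipoq* measured 12 CPM there and 0.0381 to 1.43 CPM in the others of its group, *Plin1* 11.2 against 0.153 to 0.918 CPM, *Cfd* 34.6 against 0.381 to 5.91 CPM and *Cidec* 11 against 0.0381 to 1.02 CPM. *Fabp4*, which blood vessels also make, did not share this, with 147 CPM against 180 to 206 CPM. The part of a larger piece of nerve, connective tissue or fat in these values was not tested.

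Between Mtm1-/y + TAM and WT + TAM mice, 0 of the 7 genes were called by edgeR, DESeq2 or limma-voom, where 20.1% of all tested genes were called, and 1 of the 7 (*Ngfr*) had an unadjusted p under 0.05, as did 5241 of all genes. The log2 fold changes were -0.14 for *Pmp22* (SE 0.27), -0.26 for *Prx* (SE 0.26), -0.39 for *Mag* (SE 0.44) and -0.34 for *S100b* (SE 0.56). The interaction called 0 of the 7 by any of the 3 tools, where edgeR called 0% of all genes, and 1650 genes but none of the 7 had an unadjusted p under 0.05.

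*Pmp22* and *Prx* moved together from library to library. Over the 15 libraries, Pearson's r of log2 CPM between them was 0.91. After the group means were removed it was 0.96, and without WT + TAM replicate 1 it was 0.88. *Mbp* had lower values, 0.65 with *Prx* and 0.59 with *Pmp22*, which were 0.79 and 0.73 within groups, and 0.56 and 0.48 without that library. *S100b* had r = 0.79 with *Pmp22*, but 0.57 without WT + TAM replicate 1. With *Prx*, the values were 0.64 for *Sox10* (0.51 without that library) and 0.60 for *Mag* (0.59). *Ngfr* had values between -0.44 (with *Mag*) and 0.14 (with *Mbp*) over 15 libraries. Without WT + TAM replicate 1 they lay between -0.39 (with *Mag*) and 0.43 (with *S100b*, from 0.03), with 0.33 for *Mbp*, 0.24 for *Sox10*, 0.17 for *Prx* and 0.06 for *Pmp22*. These correlations are a description of 15 libraries that share depth and the piece of muscle each came from.

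**Figure D3:**
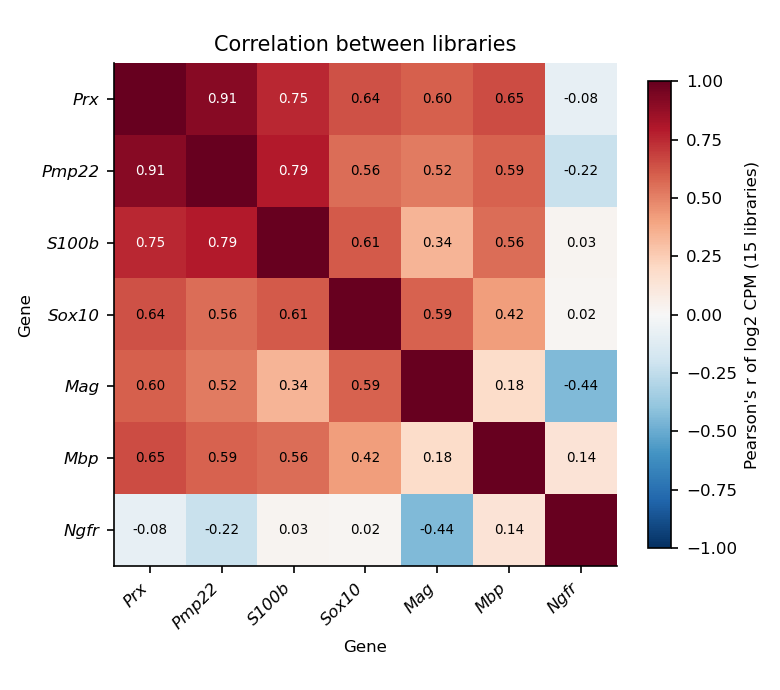
Pearson's r of log2 CPM over the 15 libraries between the 7 tested genes, in colour from -1 to 1 with each value printed. *Prx* and *Pmp22* share the highest value, 0.91, and the *Ngfr* row lies between -0.44 and 0.14.

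The ratio to *Prx* sets each gene against a sheath gene of the same library. For *Pmp22* the log2 ratio ranged from 1.20 to 1.47 in WT, 1.34 to 1.59 in WT + TAM, 1.21 to 1.4 in Mtm1-/y and 1.5 to 1.67 in Mtm1-/y + TAM libraries. *Pmp22* thus kept within a narrow ratio to *Prx*, in which the 3 treated mutant libraries lay above all untreated libraries and overlapped with WT + TAM. For *Mbp* the ratio ranged from 0.06 to 0.45 in WT and 0.33 to 0.59 in WT + TAM, and from 0.67 to 1.63 in Mtm1-/y and 0.66 to 0.95 in Mtm1-/y + TAM libraries. All 7 mutant libraries lay above all 8 wild-type libraries for the ratio of *Mbp* to *Prx*, treated or not, although the gap was narrow, from 0.59 in the highest wild-type to 0.66 in the lowest mutant library. The highest wild-type value was that of WT + TAM replicate 1. The value of 1.63 was that of Mtm1-/y replicate 1, and the remaining Mtm1-/y libraries lay between 0.67 and 0.91. For *Ngfr* the ratio ranged from -2.08 to -1.60 in WT, -3.67 to -1.41 in WT + TAM, -2.36 to -1.05 in Mtm1-/y and -2.44 to -0.67 in Mtm1-/y + TAM libraries, with overlap between all groups. These ratios were examined after the levels were known and carry no test, and the share of all genes that separate the genotypes in this way was not counted.

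**Figure D4:**
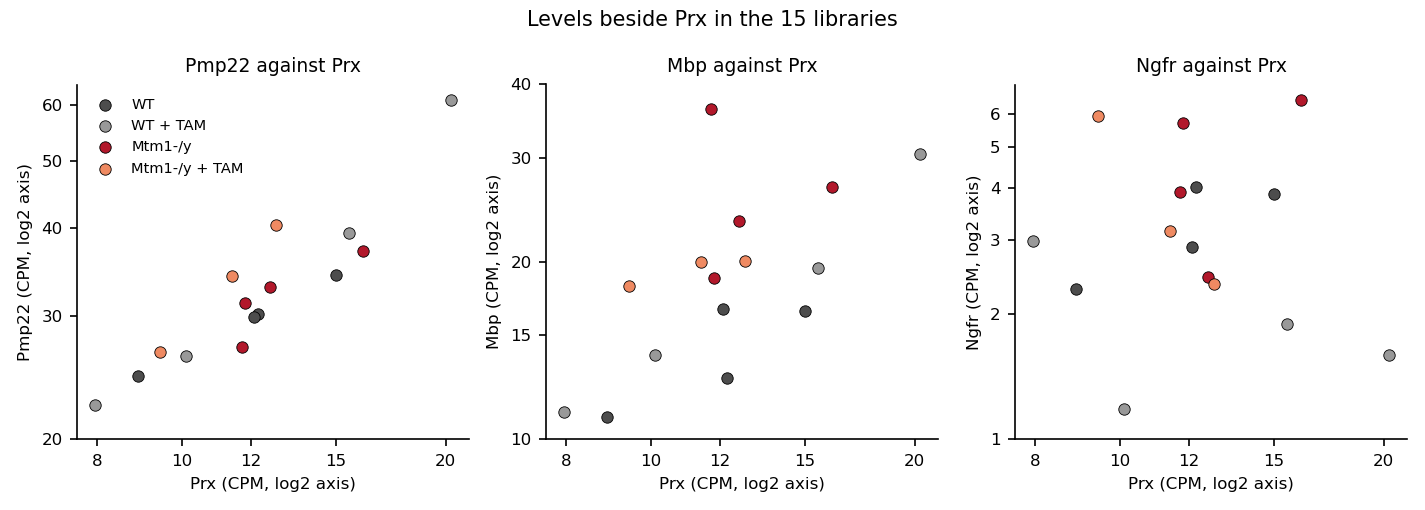
Level of *Pmp22*, *Mbp* and *Ngfr* against that of *Prx* in each of the 15 libraries, in CPM on log2 axes, coloured by group. *Pmp22* rises with *Prx* along a single band (r = 0.91), the mutant points lie above the wild-type points at a like level of *Prx* for *Mbp*, and *Ngfr* shows no such band (r = -0.08).

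For each of the 7 tested genes, those with the most similar pattern among genes averaging at least 0 on the log2 CPM scale were sought by r over 15 libraries, and up to 3 are given. For *Pmp22* they included *Kctd12* (0.88) and the slow myosin light chain gene *Myl2* (0.87). For *Prx* they included the myelin claudin gene *Cldn19* (0.93) and the myelin proteolipid gene *Mal* (0.88). For *Mbp* they included *Kdelr1* (0.91) and *Gas5* (0.90). For *Sox10* the genes were *Plcg2* (0.79), *Ampd2* (0.76) and *Ccdc61* (0.73), and for *Mag* they were *Gm14113* (0.81), *Slc2a10* (0.80) and *Endod1* (0.79). For *Ngfr* they were *Pick1* (0.89), *Ing2* (0.87) and *Rab33b* (0.84). For *S100b* they were *Ppic* (0.87), *Pcolce2* (0.85) and *Sfrp4* (0.84), of which *Pcolce2* encodes an enhancer of procollagen processing. Without WT + TAM replicate 1 the values were lower for *S100b*, at 0.77, 0.77 and 0.65 in the same order, and for *Myl2* with *Pmp22*, at 0.72. Those of *Plcg2* and *Ampd2* with *Sox10* were then 0.72 and 0.68.

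A list of 16 further genes, most of them of the myelin membrane and node, gave the setting of the structural genes. Of its 15 tested genes, 0 were higher and 3 were lower in Mtm1-/y than in WT muscle, where 15.5% of all tested genes were called higher and 14.9% lower, with a median log2 fold change of 0.21 beside 0.00 over all genes. *Tspan2* (-1.55, adjusted p 0.000211), *Drp2* (-0.71, adjusted p 0.00383) and *Cadm4* (-0.55, adjusted p 0.0475) were lower. DRP2 joins periaxin in a complex at the Schwann cell surface, and CADM4 is the adhesion protein that binds axons. Between the treated genotypes 4 of the 15 were lower and 0 higher, namely *Dhh* (-1.10), *Drp2* (-1.07), *Tspan2* (-0.72) and *Cadm4* (-0.67), with a median of -0.26 beside -0.02 over all genes. Over all genes 10.6% were called higher and 9.46% lower in that comparison. *Dhh* encodes desert hedgehog, a signal that Schwann cells secrete, and is not a membrane or node gene.

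Among 15 tested transcription and signalling genes of Schwann cells, 4 were higher and 5 lower in Mtm1-/y than in WT muscle (median 0.12), beside 15.5% higher and 14.9% lower of all genes. *Nab2*, a corepressor that binds EGR proteins, was higher (2.01, SE 0.34, adjusted p 0.000719), as was *Erbb2* (1.35, SE 0.12, adjusted p 2.72e-06). *Erbb3*, the neuregulin receptor that pairs with ERBB2, measured 5.98 to 8.68 in WT and 8.85 to 12.8 CPM in Mtm1-/y libraries, without overlap (0.56, SE 0.15, adjusted p 0.0121). *Sox8*, a relative of *Sox10*, was lower (-1.72, SE 0.42, adjusted p 0.00649), as was the laminin receptor gene *Itga6* (-1.40, SE 0.20, adjusted p 0.000221). *Egr2*, the partner of SOX10 in myelin gene activation, measured 1.01 to 1.7 in WT and 1.05 to 3.49 CPM in Mtm1-/y libraries and was not called (0.58, SE 0.34, adjusted p 0.213). Between the treated genotypes 3 were higher and 2 lower (median -0.17), beside 10.6% and 9.46% of all genes, with *Nab2* at 2.04, *Erbb2* at 1.26, *Adgrg6* at -1.19 and *Itga6* at -0.96. Counts from whole muscle do not tell which cells made these transcripts. *Itga6* averaged 53.6 CPM in WT, where *Sox10* averaged 1.81 CPM. The part of cells other than Schwann cells in the changes of this list was not tested.

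Of 9 tested genes of Schwann cell injury and repair, 3 were higher and 1 was lower in Mtm1-/y than in WT muscle (median 0.13), beside 15.5% and 14.9% of all genes. *Jun*, the transcription factor that drives the repair state, measured 30.1 to 39 in WT and 41.9 to 58.2 CPM in Mtm1-/y libraries (0.51, SE 0.13, adjusted p 0.00974). It measured 51.6 to 63.9 CPM in WT + TAM libraries, all above WT, without a call (0.66, SE 0.13, adjusted p 0.0541). The adhesion gene *Ncam1* (2.80, SE 0.30, adjusted p 3.1e-05) and the growth factor gene *Gdnf* (1.27, SE 0.46, adjusted p 0.0486) were higher, and *Btc* was lower (-1.60, SE 0.39, adjusted p 0.00656). *Ncam1* and *Jun* are also made by muscle fibres, and 7 of 8 denervation-responsive muscle genes were higher in the same comparison (*Chrna1* 1.84, *Chrng* 1.67), with sums of 86 to 100 in WT and 263 to 529 CPM in Mtm1-/y libraries. *Ncam1* is itself 1 of these 8 genes and of the 7 called. It made up 6.77 to 11.1 CPM of the sums in WT and 38.2 to 103 CPM in Mtm1-/y libraries. The part of muscle fibres in these values was not tested. Between the treated genotypes *Ncam1* alone of the 9 was called (4.58-fold, adjusted p 0.000359), where 20.1% of all tested genes were called.

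Relatives of *Ngfr*, *S100b* and *Gap43* were read from 3 further lists. Of 10 tested neurotrophin and receptor genes, 1 was lower (*Sorcs2*, -0.77, SE 0.27, adjusted p 0.0402) and 0 were higher in Mtm1-/y than in WT muscle, and 0 were called between the treated genotypes. Of 8 tested S100 genes besides *S100b*, 7 were higher in Mtm1-/y than in WT muscle and 6 between the treated genotypes, with medians of 0.98 and 1.01. Over all genes 15.5% and 10.6% were called higher, and 14.9% and 9.46% lower, in these comparisons. *S100a4* rose by 5.09 (SE 0.49), *S100a13* by 2.19 (SE 0.18) and *S100a6* by 1.09 (SE 0.21) on the log2 scale. The call of *S100a8* (3.37, SE 1.16) rested on Mtm1-/y replicate 1, which held 107 of the 131 counts of its group (2.8 CPM, against 0, 0.291 and 0.444 CPM in the others). Without that library the value was 1.48 (adjusted p 0.275), and it was called in 6 of 15 alternatives, with values of 1.48 to 4.03. Each WT library left out in turn, limma-voom, no filter, the replicate block and the fit without both libraries that stood apart also ended the call. The value of *S100b* was -0.05, with an interval that ends at 1.06. Of 7 tested growth-associated genes, 2 were higher and 1 was lower, namely the stress-induced factor *Atf3* (2.02, SE 0.51, adjusted p 0.00974), *Sprr1a*, which was at 0 in all 4 WT libraries (adjusted p 0.024), and *Marcks* (-0.53, SE 0.17, adjusted p 0.0305). *Sprr1a* was close to the detection limit, with 1 to 14 counts per Mtm1-/y library and a mean of 0.222 CPM. No gene of these lists was called for tamoxifen in either genotype or for the interaction. Some of the calls named from the lists depended on the processing. Between Mtm1-/y and WT, *Cadm4* was called in 7 of 17 alternatives (adjusted p up to 0.144), *Gdnf* in 4 of 17 (up to 0.185), *Sorcs2* in 9 of 17 (up to 0.123), *Marcks* in 10 of 17 (up to 0.0964) and *Sprr1a* in 13 of 15 (up to 0.0555). In treated mice, *Cadm4* was called in 5 of 16 (up to 0.143), *Tspan2* in 7 of 16 (up to 0.147) and *Dhh* in 5 of 15 (up to 0.173). Leaving out a library was among the settings that ended each of these calls. *Cadm4* (both comparisons), *Gdnf*, *Sorcs2* and *Dhh* were also lost with no filter and with the replicate block, *Tspan2* with upper-quartile factors, no filter and limma-voom, and *Marcks* with the compared groups alone. *Cadm4* was further lost with RLE factors between the untreated genotypes, and *Gdnf* with upper-quartile factors, limma-voom and the compared groups alone. In treated mice, *Cadm4* and *Dhh* were further lost with limma-voom and with the compared groups alone. The fit without both libraries that stood apart also ended the calls of *Marcks*, *Gdnf* and *Sorcs2* between the untreated genotypes. In treated mice it ended those of *Cadm4* and *Dhh*.

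Markers of other cells that a muscle piece can hold were summed beside these results. The counts of called markers stand beside 15.5% higher and 14.9% lower of all tested genes between Mtm1-/y and WT. Axon and motor neuron genes (2 of 5 tested were called between Mtm1-/y and WT, *Uchl1* 2.74 and *Nefh* -2.02) summed to 76.3 to 99.2 in WT and 70 to 106 CPM in Mtm1-/y libraries, of which *Mapt* alone made up 91.1% to 93.8% and 78.5% to 90.3%. Without *Mapt* the sums were 6.1 to 6.95 in WT and 6.8 to 15.2 CPM in Mtm1-/y libraries. The mean of *Uchl1* alone was 1.28 in WT and 8.47 CPM in Mtm1-/y libraries. Those of *Stmn2* (2.95 and 2.52 CPM), *Prph* (1.26 and 1.25 CPM) and *Nefh* (0.874 and 0.227 CPM) did not rise. The higher sums without *Mapt* were thus mostly those of *Uchl1* and not of axon genes in general. *Snap25* and *Isl1* were at 0 in all WT libraries and *Nefl* in all Mtm1-/y libraries. Perineurial and endoneurial genes (2 of 7 higher, *Slc2a1* 0.78 and *Sox9* 0.87) summed to 13.8 to 17 in WT and 17.7 to 24.8 CPM in Mtm1-/y libraries. The mean sums were 16 and 21.4 CPM, and the means of *Slc2a1* alone were 6.45 and 11 CPM. Most of the rise of this list was thus that of *Slc2a1*. Endothelial genes (6 of 6 lower, *Pecam1* -0.61, *Cdh5* -1.06 and *Kdr* -1.78) summed to 424 to 542 in WT and 220 to 297 CPM in Mtm1-/y libraries. Of 6 fibroblast genes 1 was higher (*Pdgfra*, 0.76), of 7 satellite cell and regeneration genes 4 were higher and 1 was lower (*Myog* 2.62, *Pax7* -2.44), and of 4 tested macrophage and lymphocyte genes 1 was higher (*Cd68*, 1.87). Of 7 adipocyte genes 0 were called, with a median log2 fold change of -1.17. *Adipoq* (-1.78, SE 1.06, adjusted p 0.223) and *Plin1* (-1.76, SE 1.08, adjusted p 0.235) lay lower in all 4 Mtm1-/y than in all 4 WT libraries, and the list without *Fabp4* summed to 5.63 to 11.4 in WT and 0.941 to 6.46 CPM in Mtm1-/y libraries. *Cfd* (2.41 to 5.75 in WT, 0.56 to 3.83 CPM in Mtm1-/y) and *Cidec* (0.91 to 1.22 and 0.202 to 1.36 CPM) overlapped between these groups. Melanocyte genes, which share the lineage factor SOX10, summed to at most 0.409 CPM in any library and none passed the filter. Of the genes named here, *Nefh* was called in 15 of 16 alternatives (adjusted p up to 0.0595), *Slc2a1* in 11 of 17 (up to 0.0909) and *Cd68* in 8 of 17 (up to 0.0893). Leaving out a library ended each of these calls, and no filter those of *Slc2a1* and *Cd68*. The call of *Cd68* was also lost with limma-voom, the replicate block, the compared groups alone and without both libraries that stood apart. The part of these cells in the *Mbp* difference was not tested.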

How the data were processed

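RNA of tibialis anterior muscle was sequenced from stranded mRNA libraries of 15 mice. The authors deposited raw read counts per Ensembl gene identifier, without normalization, with a column per mouse. Tools listed in the submitters' processing notes are STAR 2.5.3a, HTSeq 0.6.1p1, cutadapt 1.10 and Bowtie2 2.2.8, with GRCm38 and mm10 as builds. The role of each tool, the annotation used and any strand option were not given in the sources used here. Reads were not analysed. All 30672 identifiers matched GENCODE release M21 (GRCm38), which gave symbols, positions and exon lengths. Groups came from the labels.

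Library totals were 18042558 to 45823277 counts. A count of 0 allows up to 3 counts by counting error alone. Counts were fitted in edgeR 4.0.16 (R 4.3.3) after filterByExpr (minimum count 10), with TMM factors and a robust quasi-likelihood model of 4 group means over 15 libraries with 11 residual degrees of freedom. Genes were called at a Benjamini-Hochberg adjusted p under 0.05 over 15533 genes. Standard errors are the log2 fold change divided by the root of its F value. Log2 CPM has a prior count of 2. The labels do not say more on how mice were paired or housed, so p values measure the spread between these mice. The pipeline was tested on simulated data.

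The 8 genes, the pathway and marker lists, the comparisons and the alternatives were chosen with earlier results of these data known. Named genes are the 8, the called genes with the 4 largest absolute changes per list, the first 3 genes of each cell type list, the 3 most similar genes for each of the tested genes, and *Erbb3*, *Egr2* and *Jun*, of which those bearing on a result are printed. Some genes are not reported here and were left out of the lists. *Prx* was the reference of the ratios. The CCAAT and EGR searches were added after the promoters were seen. The alternatives were RLE and upper-quartile factors, no filter or a minimum count of 50, DESeq2 1.42.0, limma-voom (limma 3.58.1), the compared groups alone, a replicate block, each library left out in turn, and WT + TAM replicate 1 and Mtm1-/y replicate 1 left out together.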

Additional observations from a re-analysis of the deposited data

Results flagged for a closer look

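Each of the 8 genes in each of the 3 groups of 4 mice was examined for a library far from the others, which gave 24 sets of values, and chance flags about 1 in 20 such sets. Of these, 2 held such a library. *S100b* measured 3.07 CPM in WT + TAM replicate 1 against 0.496 to 0.816 CPM in the other 3 libraries, a gap of 0.876 of the group's range. *Gap43* measured 0 CPM in Mtm1-/y replicate 1 against 0.0807 to 0.0953 CPM in the others, a gap of 0.847 of the range, where 1 count in that library equals 0.0262 CPM.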

How the results depend on the processing

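Between Mtm1-/y and WT, *Mbp* was the gene called in 13 of 17 alternatives, with log2 fold changes of 0.71 to 1.03 and adjusted p of 0.00401 to 0.0751. The count of called genes was 0 with no filter, where 30090 genes were tested, and 0 to 1 with a library left out. It was 0 to 1 in the same way between Mtm1-/y + TAM and WT + TAM, where *Ngfr* was called without WT + TAM replicate 3. In the remaining comparisons 0 genes of the 7 were called in every alternative run. With the replicate block *Mbp* stayed called (0.85, adjusted p 0.0437) and 1, 0, 0, 0 and 0 of the 7 genes were called in the 5 comparisons. Deviations of same-numbered libraries of different groups had r of -0.113 to 0.306 over 21 pairs, 6 above 0.1. Of the 15 libraries, 5 were closest to their own number. Without the r of differently numbered pairs, these values do not tell whether the numbers pair the mice.

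Signs of values near 0 were less stable, and 47 of 613 alternatives of single genes reversed, none of them called. With a library left out, the log2 fold changes between Mtm1-/y and WT ranged from -0.24 to 0.11 for *Mag*, -0.01 to 0.24 for *Prx*, -0.02 to 0.29 for *Sox10* and -0.28 to 0.26 for *S100b*. For tamoxifen in mutants they ranged from -0.08 to 0.22 for *Pmp22*, -0.69 to 0.02 for *Mag* and -0.16 to 0.09 for *S100b*. For tamoxifen in wild type they ranged from -0.02 to 0.51 for *Pmp22*, -0.20 to 0.13 for *Mag*, -0.12 to 0.35 for *Prx*, -0.08 to 0.37 for *Sox10* and -0.72 to 0.59 for *S100b*. Between the treated genotypes they ranged from -0.32 to 0.21 for *Pmp22*, -0.13 to 0.40 for *Mbp*, -0.45 to 0.02 for *Prx* and -0.62 to 0.66 for *S100b*. For the interaction they ranged from -0.43 to 0.10 for *Pmp22*, -0.67 to 0.04 for *Mag*, -0.01 to 0.76 for *Ngfr* and -0.61 to 0.70 for *S100b*. Limma-voom turned *S100b* to 0.12, -0.03, 0.15 and 0.03, and the block turned *Mag* to 0.05 for tamoxifen in wild type. Without both libraries that stood apart, the reversed values were 0.12 (*Mag*) and 0.11 (*S100b*) between Mtm1-/y and WT, -0.03 (*Pmp22*), -0.12 (*Prx*), -0.08 (*Sox10*) and -0.72 (*S100b*) for tamoxifen in wild type, 0.22 (*Pmp22*), 0.02 (*Prx*) and 0.67 (*S100b*) between the treated genotypes, and 0.03 (*Pmp22*) and 0.56 (*S100b*) for the interaction. The cause of these reversals was not tested.

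Over all genes, tamoxifen in wild type gave 48 calls by edgeR, 298 by DESeq2, 33 with the block, 347 without both libraries that stood apart and 11 to 111 with a library left out. The interaction gave 0, and 74 by DESeq2, 2 with no filter, 14 without both libraries and 0 to 7 with a library left out. Tamoxifen in mutants gave 2, and 4 by DESeq2, 7 without both libraries and 0 to 2 with a library left out. It gave 1 with no filter and with the compared groups alone, and 2 in the remaining fits. Between the treated genotypes 3121 genes were called, and 1656 without Mtm1-/y + TAM replicate 2. Upper-quartile factors moved the genotype split from 2407 higher and 2320 lower to 2081 and 2721. Depth limits *Gap43* and *Mag*, whose values rest on few counts.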
